A study of Homo sapiens with 4 samples.

Results

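Claudins are the membrane proteins that set how tightly neighbouring epithelial cells are sealed. The transcripts of 10 claudin genes (CLDN1, CLDN2, CLDN3, CLDN4, CLDN6, CLDN7, CLDN11, CLDN12, CLDN15 and CLDN16) were followed in cells sorted on surface ICAM1. The genes were taken by symbol from a table of 58735 gene identifiers, and all 10 were found in it. RNA-seq had been carried out on 4 libraries, 2 from cells with high and 2 from cells with low surface ICAM1, an adhesion glycoprotein of the immunoglobulin family. Both subsets carried the labels of wild-type A549, a line from a human lung adenocarcinoma. They came from standard culture, were stained with an ICAM1 antibody and were separated by fluorescence-activated sorting, with no drug or gene edit named in the labels. Separate cultures are not named for the replicates, so p-values reflect only how far these libraries spread, and that spread may be technical.

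Claudins cross the membrane 4 times and join strands of the tight junction with partners on the next cell. Some, such as CLDN1, CLDN3 and CLDN11, are known to seal the space between cells, whereas CLDN2 and CLDN15 form channels for small cations and CLDN16 takes part in magnesium and calcium reabsorption in the kidney. Occludin and related MARVEL proteins lie in the same strands, and scaffold proteins such as ZO-1, encoded by TJP1, tie the strands to actin. The strands of an epithelium hold several claudins at once, so the mixture matters as well as the level of each.

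Library totals ranged from 16272591 to 17638647 counts. ICAM1, the sorting marker, was counted 2153 and 2028 times in the ICAM1-high libraries, against 72 and 75 in ICAM1-low. This is the direction of the high and low labels, and it does not show that the subsets share a line. The cell line label was not borne out in the same way. A549 is known for a homozygous loss of CDKN2A. This gene had 1009 and 1214 counts in the ICAM1-high libraries, against 0 in both ICAM1-low libraries. CDKN2B had 356 against 0 counts over the subsets and MTAP 922 against 9. The label A549 is thus contradicted at these genes in both ICAM1-high libraries. No comparison without them is possible, and every difference below is between the libraries so labelled. For the claudins too, ICAM1 level and a difference in cell line between the subsets cannot be told apart here. Of the lung epithelium markers, SFTPA1 and HOPX were at 0 counts in all 4 libraries, and SFTPC had 3 counts in each subset, whereas ABCA3, a lipid transporter of alveolar type II cells, had 2463 and 1798 counts in ICAM1-high and ICAM1-low and the type I marker AGER 151 and 116. KRT8, a keratin of simple epithelium, was abundant in both subsets, at 3074 ± 85.3 CPM (SD, n = 2) in ICAM1-high, against 1290 ± 31.7 CPM (n = 2). CPM are counts per 1000000 after TMM scaling, which corrects totals for differences in RNA makeup.

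The claudin mixture differed between the subsets mainly through CLDN1, which was 6.56-fold lower in ICAM1-high, while CLDN7 was 10.0-fold and CLDN4 1.80-fold higher. CLDN2 and CLDN12 were at similar levels in both subsets, within 1.11-fold and 1.05-fold. Of the 10 genes, 7 were abundant enough to test. CLDN2, CLDN4 and CLDN7 were called higher and CLDN1, CLDN15 and CLDN16 lower, a call being an adjusted p under 0.05 in the edgeR quasi-likelihood test. Among all 16250 genes tested, 59.7% were called, 30.4% higher and 29.4% lower, so 6 calls among 7 genes are read against a high background. The libraries of the subsets did not overlap for any of the 7, higher in ICAM1-high for 3 and lower for 4, against 40.1% and 38.3% of all genes tested. CLDN7 was kept by the expression filter for its ICAM1-high counts alone and CLDN16 for its ICAM1-low counts alone, so both could hardly have come out equal. CLDN3, CLDN6 and CLDN11 had too few counts to test. In bulk RNA, fewer cells with a transcript and less transcript per cell cannot be told apart.

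**Figure D1:**
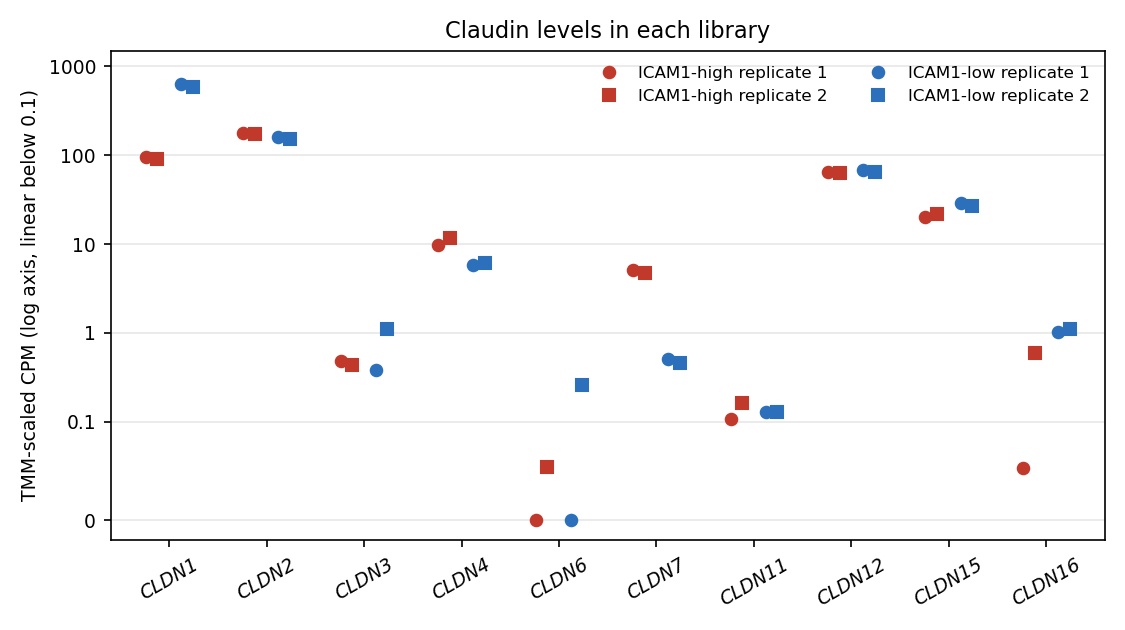
TMM-scaled CPM of the 10 claudin genes (log axis, linear below 0.1), with 1 point per library, circles for replicate 1 and squares for replicate 2, red for ICAM1-high and blue for ICAM1-low. CLDN1 lies at 91.0 to 94.97 CPM in the red points and at 591 to 629 CPM in the blue points, CLDN7 lies higher in red, and CLDN6 and CLDN11 lie near 0 throughout.

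Among the sealing claudins, CLDN1 carried the largest part of the difference. Claudin-1 is required for the barrier of the skin and is expressed in many epithelia. The gene (ENSG00000163347) lies on the minus strand of chromosome 3, chr3:190305701-190322475 in GRCh38. It had 1770 and 1671 counts in the ICAM1-high libraries, against 9828 and 9068 in ICAM1-low. In scaled terms these were 94.97 and 91.0 CPM against 629 and 591 CPM, so the subsets lay far apart and their libraries close together. The log2 fold change, ICAM1-high minus ICAM1-low, was -2.71, with an SE (standard error) of 0.05 (edgeR, adjusted p = 2.35e-55). Only 23 of the 16250 genes tested had a lower log2 fold change than CLDN1.

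CLDN4 encodes a claudin of many simple epithelia that is often raised in carcinomas. Its gene (ENSG00000189143) lies at chr7:73799542-73832693 on the plus strand. Counts were 180 and 217 in ICAM1-high, against 90 and 95 in ICAM1-low, or 9.66 and 11.8 CPM against 5.76 and 6.19 CPM. The subsets did not overlap, and CLDN4 rose by 0.84 on the log2 scale (SE 0.16, 95% interval 0.53 to 1.16, adjusted p = 5.09e-06). CLDN3, its close relative and neighbour, had 9 and 8 counts in ICAM1-high, against 6 and 17 in ICAM1-low. These overlapped, and the ratio of 17 to 23 counts per library total was 0.697, with an exact 95% counting interval of 0.350 to 1.36. A difference in CLDN3 was not detectable at this depth. The genes CLDN3 and CLDN4 are separated by 29271 bases with 0 protein-coding genes lying wholly between them.

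CLDN7 encodes a claudin that binds the adhesion protein EPCAM and is found along the sides of epithelial cells as well as in the junction. The gene (ENSG00000181885) lies at chr17:7259903-7263983 on the minus strand. It had 96 and 86 counts in ICAM1-high, against 8 and 7 in ICAM1-low, which were 5.15 and 4.68 CPM against 0.512 and 0.456 CPM. CLDN7 rose by 3.32 on the log2 scale (SE 0.34, 95% interval 2.66 to 4.03, adjusted p = 1.42e-13), and 391 genes tested had a higher log2 fold change. The level in ICAM1-low was low but above the floor of 3 counts, which stood at 0.161 to 0.196 CPM in these libraries. CLDN7 shares 38 exonic bases with ELP5 on the other strand. The strand setting of the counting is not given in the sources used here, and ELP5 itself had 729 and 768 counts in ICAM1-high, against 818 and 783 in ICAM1-low. The part of shared reads in the CLDN7 value was not tested.

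CLDN6, known from embryonic epithelium and some germ cell tumours, had 0 and 1 counts in ICAM1-high, against 0 and 4 in ICAM1-low. It lay at the floor in both subsets except for 1 library, and no fold is given. CLDN6 is separated by 206 bases from CLDN9, a close relative with 2 and 6 counts over the subsets, and reads may be shared between them. CLDN6 also shares 40 exonic bases with TNFRSF12A on the other strand. TNFRSF12A had 2066 and 2010 counts in ICAM1-high, against 4522 and 4336 in ICAM1-low. The part of shared reads in the CLDN6 counts was not tested. CLDN11, the claudin of myelin and of Sertoli cells in the testis, had 2 and 3 counts in ICAM1-high and 2 in each ICAM1-low library. Neither CLDN6 nor CLDN11 showed a detectable difference at this depth.

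Of the channel-forming claudins, CLDN2 was abundant in both subsets. Claudin-2 forms a sodium and water channel in leaky epithelia such as the proximal tubule of the kidney. Its gene (ENSG00000165376) lies at chrX:106900164-106930861 on the plus strand. Counts were 3310 and 3164 in ICAM1-high and 2512 and 2362 in ICAM1-low, or 178 and 172 CPM against 161 and 154 CPM. The subsets did not overlap, but the difference was small, at a log2 fold change of 0.15 (SE 0.05, 95% interval 0.06 to 0.25, adjusted p = 0.00495). The call was lost without ICAM1-low replicate 2 (log2 fold change 0.11, adjusted p = 0.208) and with DESeq2 (0.14, adjusted p = 0.0636). With scaling by library size alone, which shifted the median over all genes by 0.17 on the log2 scale, it was 0.33.

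CLDN15, a cation channel claudin of the intestine, was lower in ICAM1-high. The gene (ENSG00000106404) lies at chr7:101232092-101238820 on the minus strand. It had 379 and 398 counts in ICAM1-high, against 452 and 407 in ICAM1-low, or 20.3 and 21.7 CPM against 28.9 and 26.5 CPM. CLDN15 fell by 0.40 on the log2 scale (SE 0.10, 95% interval -0.59 to -0.21, adjusted p = 2.1e-04), and by 0.23 with scaling by library size alone.

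CLDN16, the renal claudin, lies beside CLDN1 on chromosome 3 (ENSG00000113946, chr3:190322541-190412143, plus strand). Of 3 CLDN16 transcripts in the annotation, 1 is separated from the start of CLDN1 by a gap of 65 bases and runs the other way. The others start at 190387872 and 190388120, far downstream. The RefSeq starts of CLDN16 used below, at 190290361 and 190388163, lie outside that gap. Counts were 1 and 11 in ICAM1-high and 16 and 17 in ICAM1-low, at most 1.11 CPM in any library. CLDN16 fell by 1.69 on the log2 scale (SE 0.57, 95% interval -2.86 to -0.57, adjusted p = 0.00823). Its size rests on single libraries, since it was -0.83 without ICAM1-high replicate 1 (adjusted p = 0.309) and -4.13 without ICAM1-high replicate 2. The call was also lost without ICAM1-low replicate 2 (-1.64, adjusted p = 0.0621) and with DESeq2 (-1.72, adjusted p = 0.173). Beside each other, CLDN1 averaged 610 CPM in ICAM1-low and CLDN16 1.07 CPM. Which CLDN16 start was used cannot be read from gene counts.

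CLDN12, which unlike most claudins lacks the usual binding motif for ZO proteins at its end, was not called. The gene (ENSG00000157224) lies at chr7:90383721-90513402 on the plus strand. It had 1202 and 1169 counts in ICAM1-high, against 1078 and 1000 in ICAM1-low, which were 64.5 and 63.7 CPM against 68.9 and 65.2 CPM. The log2 fold change was -0.07 (95% interval -0.19 to 0.06, adjusted p = 0.382), and 0.11 with scaling by library size alone (adjusted p = 0.137), so its sign depended on the scaling. Exons of CLDN12 share 347 bases with GTPBP10 and 201 with CDK14 on the same strand. GTPBP10 had 563 and 553 counts in ICAM1-high against 1072 and 1088 in ICAM1-low, and CDK14 had 124 and 172 against 1 and 0. How shared reads were counted is not given, so the value of CLDN12 is uncertain to that extent.

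**Figure D2:**
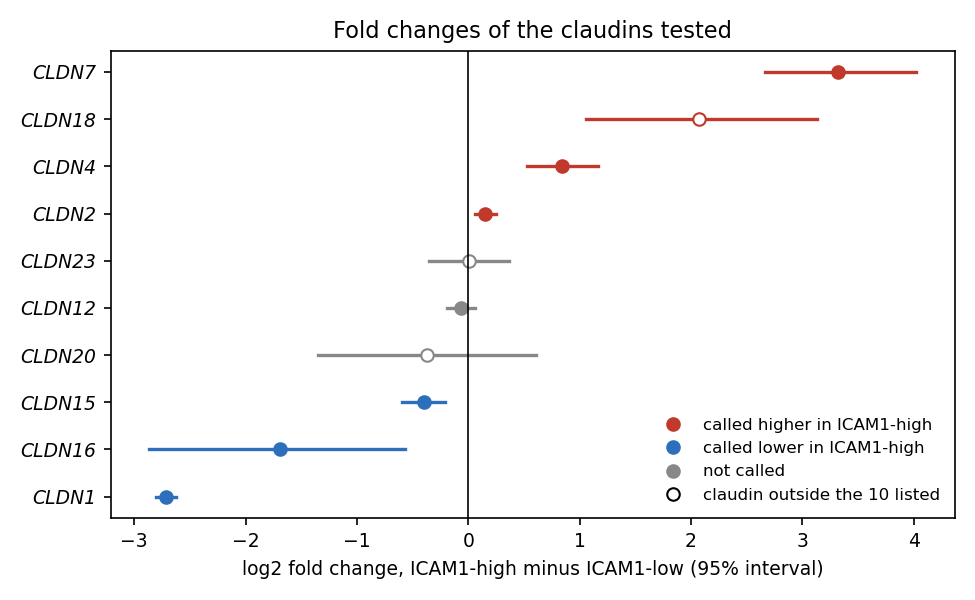
Log2 fold change, ICAM1-high minus ICAM1-low, of the 10 claudin family genes abundant enough to test, with 95% intervals from the edgeR fit, filled points for the listed genes and open points for other claudins, coloured by call. CLDN7 lies farthest to the right at 3.32 and CLDN1 farthest to the left at -2.71 with the narrowest interval among the large changes, and the intervals of CLDN12, CLDN20 and CLDN23 cross 0.

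Start-site sequence is shown for CLDN1 and CLDN7, the members with the largest falls and rises, from the RefSeq promoter table of build GRCh38.p14. The table held 14 windows for the 10 genes, and 250 bases before each start were searched on both strands. The hexamers searched were CAGGTG with its complement CACCTG, an E-box known to bind repressors of the Snail and ZEB families, and GGGCGG with its complement CCGCCC, the GC box bound by SP1. The E-box was found in 1 of the 14 windows, a start of CLDN7, against 17.5% of all 35116 windows in the table. The GC box was found in 9 windows of 8 genes, against 42.6% of all windows. The stretch before the annotated start of CLDN1, chr3:190322476-190322696 on the minus strand, covers the gap to the nearest annotated CLDN16 transcript, with GC boxes in capitals.
CLDN1: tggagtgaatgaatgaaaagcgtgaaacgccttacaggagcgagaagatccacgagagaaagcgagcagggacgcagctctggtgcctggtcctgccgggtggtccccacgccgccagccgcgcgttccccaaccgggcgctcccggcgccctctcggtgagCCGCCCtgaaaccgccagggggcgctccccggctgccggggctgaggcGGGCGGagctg
The E-boxes of CLDN7 lay 174, 135, 20 and 9 bases before the start at position 7262478. They are shown in capitals in stretches of 30 bases on the minus strand, from chr17:7262629-7262658, chr17:7262590-7262619 and chr17:7262479-7262508 in this order.
CLDN7 distal: cctcctCACCTGggcaaggaggggtggggg
CLDN7 middle: ccggttCAGGTGagtgtcccttcggtgacg
CLDN7 proximal: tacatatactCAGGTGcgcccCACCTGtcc
The other RefSeq start of CLDN7, at 7263213, had 0 E-boxes in its window. Annotated CLDN7 transcripts also start at 7262945 and 7263983, and for these the E-boxes lie after the start. Which CLDN7 start was used cannot be read from gene counts. A match describes these letters only, and binding was not measured. The Snail family genes SNAI1 and SNAI2 rose in ICAM1-high, whereas ZEB1 fell by 0.32 and ZEB2 by 0.26 on the log2 scale. A link of these genes to any claudin was not tested. SNAI1 had 322 and 378 counts in ICAM1-high, against 32 and 27 in ICAM1-low, and rose by 3.31 on the log2 scale (SE 0.18, adjusted p = 1.73e-26). SNAI2 had 42 and 34 against 0 and 1 and was kept by the filter for ICAM1-high alone (edgeR adjusted p = 4.18e-10).

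To compare levels between genes, CPM were divided by the summed exon length in kilobases. The 10 genes together came to 98.2 ± 1.32 CPM per kilobase (SD, n = 2) in ICAM1-high and 235 ± 8.99 in ICAM1-low. CLDN1 made up 25.8 ± 0.434% of that sum in ICAM1-high and 71.0 ± 0.355% in ICAM1-low. CLDN2 made up 52.2 ± 0.417% and 19.7 ± 0.165%. The claudin present at the highest level per kilobase was thus CLDN2 in both ICAM1-high libraries and CLDN1 in both ICAM1-low libraries. The ratio of CLDN1 to CLDN2 per kilobase was 0.498 and 0.492 in the ICAM1-high libraries, against 3.64 and 3.57 in ICAM1-low. These shares and ratios do not depend on the scaling between libraries. They do depend on the length used for each gene.

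In ICAM1-high the order of levels was CLDN2 (51.3 CPM per kilobase), CLDN1 (25.4), CLDN12 (9.51), CLDN15 (7.26), CLDN4 (2.28) and CLDN7 (1.97), with the other 4 genes under 0.4. CLDN4 and CLDN7 differed by less than the SD of CLDN4, which was 0.325. In ICAM1-low the order was CLDN1 (167), CLDN2 (46.1), CLDN12 (9.95), CLDN15 (9.58) and CLDN4 (1.27), with the other 5 under 0.6. There, by the summed exon length, CLDN12 and CLDN15 differed by less than their SDs of 0.393 and 0.580. These levels depend on the length used. By the longest annotated transcript CLDN12 was 17.97 CPM per kilobase in ICAM1-high and 18.8 in ICAM1-low, and CLDN15 9.86 and 13.0. CLDN1 was 26.7 and 175, and CLDN2 55.5 and 49.9. The order of the genes given above stayed the same.

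**Figure D3:**
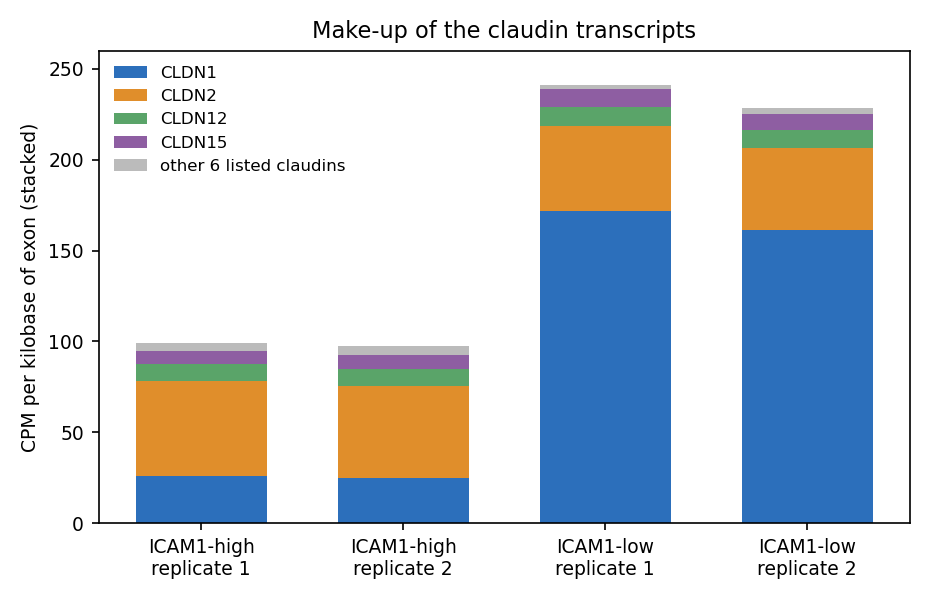
Stacked CPM per kilobase of exon for the 10 listed claudins in each library, with CLDN1, CLDN2, CLDN12 and CLDN15 in colours and the other 6 genes in grey. CLDN1 fills most of the bar in both ICAM1-low libraries, while the CLDN2 segment is of similar height in all 4 libraries.

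Of 14 other claudin genes, 3 were tested, 1 was called higher and 0 lower, against 30.4% and 29.4% of all genes tested. CLDN18, the claudin of stomach and lung alveoli, had 23 and 28 counts in ICAM1-high, against 6 and 4 in ICAM1-low, and rose by 2.07 (SE 0.52, adjusted p = 3.58e-04). It passed the filter through ICAM1-high alone. CLDN20 (log2 fold change -0.37, 95% interval -1.35 to 0.61) and CLDN23 (0.01, -0.36 to 0.37) were not called. CLDN8, CLDN17, CLDN22, CLDN25 and CLDN34 had 0 counts in all 4 libraries. The other 6 had at most 12 counts over the 4 libraries, among them CLDN5, the claudin of endothelium, with 8 counts in ICAM1-high, against 2 in ICAM1-low. All 2581 exonic bases of CLDN22 are shared with WWC2 on the other strand. WWC2 had 959 and 964 counts in ICAM1-high, against 1384 and 1386 in ICAM1-low. How shared reads were counted is not given, so the 0 counts of CLDN22 are uncertain to that extent.

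The proteins that build the junction with claudins were described in the same fit, by lists of their roles. Of the MARVEL and tricellular junction genes, 4 of 6 were tested, 3 fell and 0 rose, against 29.4% and 30.4% of all genes tested. Their median log2 fold change was -0.85, against 0.01 over all genes tested. Occludin, encoded by OCLN, had 268 and 203 counts in ICAM1-high, against 586 and 545 in ICAM1-low, and fell by 1.52 (SE 0.10, adjusted p = 1.06e-20). MARVELD2, which encodes tricellulin, fell by 0.68 (SE 0.14), and LSR, which marks the corners where 3 cells meet, by 0.43 (SE 0.08). MARVELD3 was at -1.02 (adjusted p = 0.0838). Of the junctional adhesion molecules and their relatives, 4 of 6 were tested, 3 fell and 0 rose (median -0.42), against 29.4% and 30.4% of all genes tested. F11R, which encodes JAM-A, fell by 0.54 (SE 0.08), ESAM by 0.58 (SE 0.23) and CXADR, the coxsackievirus and adenovirus receptor, by 0.27 (SE 0.08). With scaling by library size alone or without ICAM1-low replicate 2, only 1 of these was called.

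Scaffold and plaque genes went both ways, with 7 of 20 falling and 6 rising (median 0.05), against 29.4% and 30.4% of all genes tested. CGNL1, among the 6, had 23 and 36 counts in ICAM1-high, against 4 and 7 in ICAM1-low. It passed the filter through ICAM1-high alone. TJP1, which encodes ZO-1, had 3616 and 3500 counts in ICAM1-high, against 5475 and 5355 in ICAM1-low, and fell by 0.86 (SE 0.04, adjusted p = 4.71e-28). AMOTL2, of the angiomotin family, fell by 0.81 (SE 0.05), ARHGEF2, a guanine nucleotide exchange factor held at junctions, by 0.54 (SE 0.06) and the polarity scaffold gene PATJ by 0.63 (SE 0.08). Of the polarity complex genes 12 of 12 were tested, 5 rose and 2 fell (median 0.08), against 30.4% and 29.4% of all genes tested. PRKCZ, an atypical protein kinase C, rose by 1.16 (SE 0.14), LLGL1 by 0.67 (SE 0.08), DLG1 by 0.44 (SE 0.07) and SCRIB by 0.32 (SE 0.05). Over these 4 junction lists 40 of 44 genes were tested, 15 fell and 11, CGNL1 among them, rose, with a median of -0.03. These 26 calls among 40 genes are close to the background of 59.7%.

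**Figure D4:**
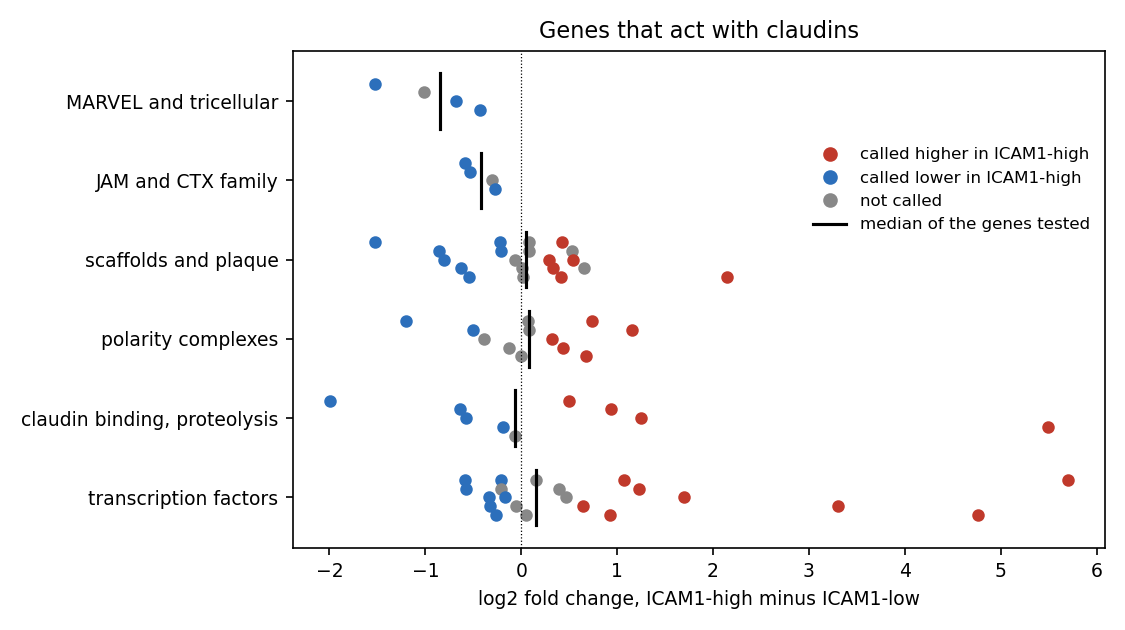
Log2 fold change, ICAM1-high minus ICAM1-low, of the tested genes of 6 lists, 1 point per gene, red where called higher, blue where called lower and grey where not called, with the median of each list as a black line. All tested MARVEL, tricellular, JAM and CTX family genes lie left of 0, whereas the other 4 lists lie on both sides.

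Among membrane proteins that bind claudins and proteases that act on them, 9 of 11 were tested, 4 rose and 4 fell (median -0.06), against 30.4% and 29.4% of all genes tested. ST14, which encodes matriptase, a membrane protease of epithelial barriers, had 231 and 266 counts in ICAM1-high, against 6 and 3 in ICAM1-low, and rose by 5.496 (SE 0.29, adjusted p = 5.67e-27). It passed the filter through ICAM1-high alone. SPINT2, an inhibitor of such proteases, fell by 0.57 (SE 0.04), and EPHA2, a receptor kinase that can phosphorylate CLDN4, fell by 1.995 (SE 0.04). EFNB1, an ephrin known to bind claudins, rose by 0.49 (SE 0.09). EPCAM, the partner of CLDN7, had 39 and 64 counts in ICAM1-high, against 73 and 61 in ICAM1-low. The raw counts overlapped, and EPCAM was called lower after scaling (log2 fold change -0.63, SE 0.25, adjusted p = 0.0225), opposite in direction to CLDN7.

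Transcription factors linked to claudin genes were tested in 21 of 26 cases, of which 8 rose and 7 fell (median 0.16), against 30.4% and 29.4% of all genes tested. SNAI2 and SOX18, among the 8, passed the filter through ICAM1-high alone. Beside SNAI1, KLF5, a factor of epithelial growth, fell by 0.59 (SE 0.05), SOX9 rose by 0.92 (SE 0.10) and HNF4A, a factor of liver and gut epithelium, by 0.65 (SE 0.08). Of other genes known from epithelial-mesenchymal transition, TWIST1 rose by 1.70 (SE 0.33) and TWIST2 by 1.07 (SE 0.17), as SNAI1 and SNAI2 did, whereas ZEB1 fell by 0.32 (SE 0.08) and ZEB2 by 0.26 (SE 0.09). GRHL2, an activator of claudin genes in epithelia, had 1 count in ICAM1-high and 0 in ICAM1-low.

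Markers of other cell types were counted in the same libraries, and the calls below stand against 30.4% higher and 29.4% lower over all genes tested. The summed level of 14 fibroblast markers was 34.9 to 39.8 CPM in ICAM1-high and 6.08 to 8.15 CPM in ICAM1-low. Of 7 tested, 5 were called higher and 0 lower, of which LUM, FAP and PDGFRB passed the filter through ICAM1-high alone. COL1A1, a chain of type I collagen, made up most of the sum, at 28.6 against 4.07 CPM, and rose by 2.81 (SE 0.13). LUM had 99 and 8 counts in ICAM1-high and ICAM1-low, FAP 42 and 1, and ACTA2 90 and 34. POSTN and DPT were at 0 counts in all libraries, and COL1A2 and COL3A1 at 0 in ICAM1-high.

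The sum of 14 endothelial markers was 52.2 to 57.0 CPM against 37.1 to 40.4 CPM, with 4 of 6 tested higher, 1 lower and FLT1 at 0. ENG, a coreceptor for TGF-beta ligands, rose by 2.29 (SE 0.16), and PECAM1 by 2.09 (SE 0.33). ERG had 89 and 0 counts and CDH5 64 and 1, and both passed the filter through ICAM1-high alone. ESAM was the marker called lower, by 0.58 (SE 0.23, edgeR adjusted p = 0.0216). VWF and KDR had 5 and 0 counts over the subsets, ROBO4 5 and 4, TEK 3 and 0, EMCN 3 and 1 and TIE1 1 and 0. These were too few to test. EGFL7, a large part of the sum, was not called, at 25.8 against 29.4 CPM. The sum of 14 leukocyte markers was 25.2 to 27.3 CPM against 19.4 to 19.8 CPM, with PTPRC, CD3E, CD3D, MS4A1 and FCGR3A at 0. Of 2 tested, CD14 rose by 0.98 (SE 0.12) and ITGAM fell by 0.50 (SE 0.17). For 16 lung epithelium markers, CLDN18 among them, the sum was 78.0 to 81.9 CPM against 61.5 to 66.5 CPM, with 3 of 5 tested higher. ABCA3 made up most of it, at 66.6 against 58.03 CPM, and rose by 0.20 (SE 0.07). LAMP3, with 211 and 8 counts, and CLDN18 passed the filter through ICAM1-high alone. The part of other cells in the claudin differences was not tested.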

How the data were processed

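RNA extracted with Trizol from sorted cells was made into SMARTer mRNA libraries, per the labels' protocols. What the authors deposited are raw counts of reads per Ensembl gene in each library. The submitters' processing notes name FastQC 0.10.1 and GRCh38. The alignment and counting, strand and shared reads included, is not given in the sources used here. Positions and lengths came from GENCODE 29, which held all 58735 identifiers.

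Counts were compared with edgeR 4.0.16 in R 4.3.3 (quasi-likelihood test, robust, TMM scaling, default filter with a minimum count of 10), with Benjamini-Hochberg adjustment over 16250 genes. Counting intervals cover counting error only. On simulated counts of 15870 genes, the test recovered 52% of changes of 1.25-fold and 100% of 4-fold ones, with 10 false calls among 172. The simulation changed 50 genes per fold, all with a mean of at least 1 CPM, and gave every gene the same spread. The data differ, with 59.7% of genes called and some claudins under 1 CPM, so these rates do not carry over to them. Members and lists were chosen with earlier results of these data known. All members are named, and of other lists up to 4 called genes with the smallest adjusted p. Genes at 0 are named to account for a list. AGER, SFTPC, MARVELD3, EPCAM, TWIST1, TWIST2, ZEB1, ZEB2, SNAI2, SOX18, GRHL2 and EGFL7 were chosen after their values were seen. The same holds for CGNL1, for ESAM as an endothelial marker, and for VWF, KDR, ROBO4, TEK, EMCN and TIE1. Alternatives were DESeq2 1.42.0, limma-voom (3.58.1), other scalings, filters and thresholds, mitochondrial and ribosomal protein genes left out, each library left out in turn, and the replicate number as a block.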

Additional observations from a re-analysis of the deposited data

How the results depend on the processing

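CLDN1, CLDN4 and CLDN7 kept their direction and call under all 14 alternatives, with log2 fold changes of -2.77 to -2.54, 0.69 to 1.02 and 3.24 to 3.50. CLDN15 kept its direction (-0.47 to -0.23) and lost its call only where a 1.5-fold difference was also asked for. CLDN12 changed sign with scaling by library size alone, to 0.11. Without each library in turn, 2 to 3 listed claudins were called higher and 2 to 3 lower, and 8383 to 9156 genes in all. With a 1.5-fold difference also asked for, 4803 genes were called in place of 9706, and 5 scaffold, 0 junctional adhesion, 4 polarity, 5 claudin-binding, 9 transcription factor, 1 renal partner, 6 simple epithelium and 1 leukocyte genes. Scaling by library size alone called 9859 genes, 68.3% of them higher in place of 50.8%. It left 1 junctional adhesion and 1 leukocyte gene and 5 renal partners called. DESeq2 called fewer genes in all, 7017 in place of 9706. Among the 7017 were 1 junctional adhesion, 5 claudin-binding, 1 renal partner, 3 fibroblast and 1 leukocyte genes. Where a gene needed a mean of 1 CPM, 9222 of 14489 genes were called, with 0 other claudins and 3 fibroblast markers among them. Without single libraries the lists gave 1 to 3 junctional adhesion genes, 1 to 3 renal partners, 3 to 5 fibroblast and 1 to 2 leukocyte markers. With 1 library left, it was assumed to vary like the other subset. The causes of these changes were not tested. With the replicate number as a block, 9812 genes were called, with 3 listed claudins higher and 3 lower. The deviations of same-numbered libraries correlated at 0.039 over genes, so the numbers were not taken to pair the libraries.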

Other observations

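Genes that act with the renal claudins were described in the same fit. Of 10 such genes, 6 were tested, 1 rose and 1 fell (median log2 fold change 0.04), against 30.4% and 29.4% of all genes tested. With scaling by library size alone 5 of these genes were called, and with DESeq2 1. WNK4, a kinase that regulates claudins in the distal nephron, had 100 and 75 counts in ICAM1-high, against 149 and 186 in ICAM1-low, and fell by 1.19 (SE 0.17, adjusted p = 1.03e-08). CNNM4, a magnesium transporter gene, rose by 0.30 (SE 0.09). UMOD and CASR, known from kidney, were at 0 counts in all 4 libraries. Of 15 genes of adherens junctions and simple epithelium, 13 were tested, 9 rose and 3 fell (median 0.29), against 30.4% and 29.4% of all genes tested. ST14 and ESRP2, among the 9, passed the filter through ICAM1-high alone. Among them ESRP2, an epithelial splicing regulator, had 175 and 224 counts in ICAM1-high, against 5 and 8 in ICAM1-low, whereas its relative ESRP1 had 2 and 9 counts over the subsets. MAL2, a protein of apical transport, rose by 2.69 (SE 0.15), and KRT7, a keratin of simple epithelium, fell by 1.05 (SE 0.04). ESRP1 and ESRP2 were chosen after their values were seen.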
